A study of Mus musculus with 4 samples.

Results

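The immediate early genes examined here are 10 named genes whose transcription rises within minutes of a stimulus without new protein synthesis: Fos, Fosb, Jun, Junb, Egr1, Egr3, Nr4a1, Npas4, Arc and Ier2. They were taken by name from the 21938 protein-coding genes of the GENCODE annotation of mouse genome build mm10, under a rule that uses no measured value. Their open chromatin was read from ATAC-seq, in which Tn5 transposase cuts and tags open DNA, of hippocampi at postnatal day 0 (P0), from 2 Ctrl and 2 cKO libraries with 1 deposited list of peaks each. The cKO mice carried Kdm2bEmx1-delta-CxxC, in which Emx1-Cre, active in the dorsal telencephalon, removes the part of Kdm2b that encodes the CxxC zinc finger by which KDM2B binds CpG islands. The Ctrl mice were Kdm2bfl/+ or Kdm2bfl/fl, and the labels do not say which library had which. All groups therefore carried at least 1 floxed Kdm2b allele. Cells that Emx1-Cre does not reach, such as interneurons and vessels, keep an intact gene in the cKO tissue. The labels give neural progenitor cells as the source and hippocampus in titles and protocol, and hippocampus is used here.

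Immediate early genes often wait in a poised state, with an open promoter, and are switched on by kinases that act on transcription factors already bound to DNA. SRF with its ELK partners binds the CArG box of the serum response element, CREB binds the cAMP response element (CRE), and MEF2 factors act at many of these loci in neurons. Fos, Fosb, Jun and Junb encode subunits of the dimeric factor AP-1, Egr1 and Egr3 encode zinc finger factors, Nr4a1 encodes an orphan nuclear receptor and Npas4 encodes a neuronal factor induced by calcium entry. Arc encodes a protein of the synapse that controls the trafficking of glutamate receptors, and Ier2 encodes a nuclear protein induced by growth factors. In neurons, several of these genes are known to depend on enhancers as well as on the promoter.

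The lists differed in length and depth. Replicates 1 and 2 of each group are written rep1 and rep2. There were 46389 peaks for Ctrl rep1, 7037 for Ctrl rep2, 21404 for cKO rep1 and 44535 for cKO rep2. The fragments estimated from the peak statistics came to 14.6, 29.6, 19.4 and 17.1 M (mega) in the same order. These estimates take the shortest listed peak, 197 to 219 bp, as the fragment length and 1.87 Gb as the genome size. Ctrl rep2 thus stood apart, with the most fragments and the fewest peaks, and group comparisons are given with and without it. A peak at mean background needed 7, 12, 9 and 8 fragments at its summit in these libraries, so a promoter with no listed peak may still be open below that limit. Of 9 markers of dorsal telencephalon and hippocampus, 8 had a promoter peak in Ctrl rep1, 0 in Ctrl rep2, 5 in cKO rep1 and 9 in cKO rep2. Of 8 markers of other cells, 3 had one in Ctrl rep1, 0 in Ctrl rep2, 2 in cKO rep1 and 3 in cKO rep2. The markers Csf1r and Cx3cr1 of microglia, Cldn5 of endothelium, Olig2 of the oligodendrocyte lineage and Hbb-bt of red blood cells had no promoter peak in any list, whereas Gad1 and Dlx2 of interneurons had one in 3 and 2 lists and Ttr of the choroid plexus in 3. In whole tissue, fewer cells of a type and less open chromatin per cell cannot be told apart.

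The promoter sequences are shown first, because the peaks described below sit on them and the known factors of these genes read them. RefSeq promoters on GRCm38.p6, each of 250 bases before to 50 bases after the start of the gene, matched 6 of the 10 genes by symbol. These were Fos, Fosb, Jun, Junb, Npas4 and Nr4a1. Egr1, Egr3, Arc and Ier2 had no entry. The 3 printed below are Fos and Nr4a1, which had a distal peak stronger by p-value than the promoter peak, and Fosb, which held an EGR motif. The RefSeq start of Npas4 lies 345 bp downstream of its GENCODE TSS, so its RefSeq window lies inside the gene as annotated here and is counted but not printed. The RefSeq start of Junb lies 30 bp upstream of its GENCODE TSS. The printed sequences run 5′ to 3′ along the gene, and capitals mark the core TGACG of the CRE and the EGR motif GCGNGGGCG, on either strand. The Fos promoter lies at chr12:85473640-85473939 on the plus strand, the Fosb promoter at chr7:19309996-19310295 on the minus strand and the Nr4a1 promoter at chr15:101266596-101266895 on the plus strand.
Fos promoter: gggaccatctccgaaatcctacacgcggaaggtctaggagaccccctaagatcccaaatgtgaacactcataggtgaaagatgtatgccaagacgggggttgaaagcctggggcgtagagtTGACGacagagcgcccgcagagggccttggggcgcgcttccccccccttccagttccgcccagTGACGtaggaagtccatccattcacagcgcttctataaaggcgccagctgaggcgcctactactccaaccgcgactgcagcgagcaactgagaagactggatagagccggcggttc
Fosb promoter: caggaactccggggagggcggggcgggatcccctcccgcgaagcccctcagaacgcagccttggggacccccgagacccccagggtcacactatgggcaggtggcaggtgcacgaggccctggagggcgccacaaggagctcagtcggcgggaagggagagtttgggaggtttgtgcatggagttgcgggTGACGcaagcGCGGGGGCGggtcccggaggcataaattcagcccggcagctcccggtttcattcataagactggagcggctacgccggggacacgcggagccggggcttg
Nr4a1 promoter: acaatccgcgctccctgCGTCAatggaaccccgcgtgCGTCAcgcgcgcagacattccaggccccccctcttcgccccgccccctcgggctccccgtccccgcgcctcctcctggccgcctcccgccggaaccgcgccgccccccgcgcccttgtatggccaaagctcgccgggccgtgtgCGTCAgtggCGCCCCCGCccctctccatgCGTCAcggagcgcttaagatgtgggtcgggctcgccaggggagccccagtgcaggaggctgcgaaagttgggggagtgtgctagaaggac

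The TGACG core was found in 5 of the 6 promoters (Fos, Fosb, Junb, Npas4 and Nr4a1), and in 20.8% of all 32817 promoters of the same length. Nr4a1 held 4 such cores, beginning 233, 213, 69 and 40 bases before its start. Fos held a core at 129 and at 66 bases before its start, with the TATA box TATAAA at 33 bases before. The TATA box was present in 2 of the 6 promoters, Fos and Junb, against 13.6% of all. Fosb and Nr4a1 held an EGR motif, against 5.56% of all promoters. No complete CRE (TGACGTCA, 1.79% of all), CArG box (1.63%), AP-1 motif (TGANTCA, 7.81%) or NR4A motif (AAAGGTCA, 1.51%) was found within these 300 bases in any of the 6. In these promoters, sequence more than 250 bases before the start was not searched, so a site farther upstream would be missed. Both strands were searched, N stands for any base, and every complete CRE also counts as a core. In base composition, 5 of the 6 promoters had at least 50% GC and a ratio of observed to expected CpG of at least 0.6, as had 33.4% of all promoters. The exception was Jun, with 60% GC and a ratio of 0.594. The core and the EGR motif contain CpG, so the set of all promoters differs from these 6 in composition. No share matched for composition is given for promoters.

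A promoter peak was one whose summit lay within 2 kb of an annotated transcription start site (TSS) of the gene. Promoter peaks were listed for 9 of the 10 genes in Ctrl rep1, where 58% of all protein-coding genes had one. In Ctrl rep2 there were 3 (Fosb, Jun and Egr1) against 8.27% of all genes, in cKO rep1 there were 7 against 40.3%, and in cKO rep2 there were 9 against 55.9%. Fosb, Jun and Egr1 had a promoter peak in all 4 lists, as did 8.02% of protein-coding genes. Fos, Junb, Nr4a1 and Ier2 had one in every list but Ctrl rep2, which gave 7 genes in at least 3 lists against 39.9% of all genes. Arc had a promoter peak in 2 lists, and Egr3 and Npas4 in 1 list each. The promoters are ordered below by the promoter percentile, which is the percentage of protein-coding genes that the gene exceeded within a list by the deposited p-value of the strongest promoter peak, and 0 where no peak was listed. Depth is given as scaled depth, the number of fragments over the summit as a multiple of the genome-wide mean in the library.

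**Figure D1:**
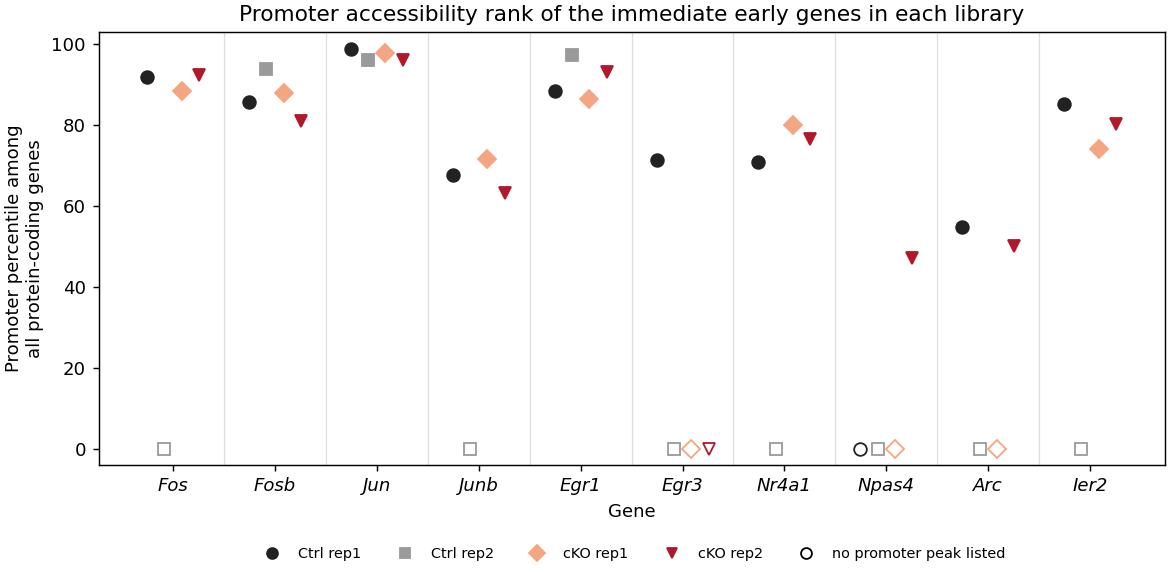
Promoter percentile (vertical axis, 0 to 100, share of all protein-coding genes with a weaker strongest promoter peak in the same list) of the 10 genes in each of the 4 libraries; open symbols at 0 have no listed promoter peak. Jun lies above 96 in all 4 libraries, whereas Egr3 and Npas4 have a peak in 1 library each.

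Among the AP-1 genes, Jun (ENSMUSG00000052684.4, chr4:95049034-95052222, minus strand) had the highest promoter percentile in all 4 libraries, with 99.0 in Ctrl rep1, 96.2 in Ctrl rep2, 97.8 in cKO rep1 and 96.2 in cKO rep2. Over all 10 genes it was highest in 3, and in Ctrl rep2 it ranked below Egr1. Its peak was 1716 bp wide in Ctrl rep1 and ranked 256 of 46389, on 205 fragments where the local background was 19.7. The scaled depth of Jun was 126 (95% exact Poisson interval 110 to 145) in Ctrl rep1, 6.93 in Ctrl rep2, 38.6 in cKO rep1 and 78.6 in cKO rep2. The summit, 19 to 71 bp upstream of the TSS, also lay in an intron of the antisense gene Junos, and ATAC-seq does not assign openness to a strand. Jun was the single gene of the 10 above the 95th percentile in all 4 lists, as were 2.39% of protein-coding genes.

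Fos (ENSMUSG00000021250.13, chr12:85473890-85477273, plus strand) had a promoter percentile of 91.8 in Ctrl rep1, 88.5 in cKO rep1 and 92.4 in cKO rep2, and no promoter peak in Ctrl rep2. Its scaled depth was 70.9 (58.5 to 85.1), 21.2 (15.4 to 28.5) and 60.9 (50.0 to 73.4) in these 3 libraries. The summits lay 223, 129 and 176 bp upstream of the TSS, on the printed promoter. Fosb (ENSMUSG00000003545.3, chr7:19302696-19310051, minus strand), a Fos paralogue with a stable truncated form in neurons, had a percentile of 85.7 in Ctrl rep1, 93.9 in Ctrl rep2, 88.0 in cKO rep1 and 81.0 in cKO rep2. In the short list of Ctrl rep2 any gene with a promoter peak reaches a percentile of at least 91.7, and the Fosb peak there ranked 4744 of 7037 at a scaled depth of 5.77. A further Fosb peak, in an intron 989 bp downstream of the nearest TSS, was listed in 3 libraries with a scaled depth of 27.7 in Ctrl rep1, 14.0 in cKO rep1 and 31.0 in cKO rep2. Junb (ENSMUSG00000052837.6, chr8:84974484-84978718, minus strand) ranked lowest of the 4 AP-1 genes in the 3 libraries that listed it, with a percentile of 67.7 in Ctrl rep1, 71.6 in cKO rep1 and 63.3 in cKO rep2. Its scaled depth was 35.1, 12.5 and 26.0 in these libraries.

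The EGR genes differed from each other. Egr1 (ENSMUSG00000038418.7, chr18:34859823-34864984, plus strand) had a promoter percentile of 88.4 in Ctrl rep1, 97.3 in Ctrl rep2, 86.5 in cKO rep1 and 93.2 in cKO rep2, and was the strongest of the 10 promoters in Ctrl rep2, on 30 fragments. Its scaled depth was 66.0 (54.1 to 79.7) in Ctrl rep1, 8.66 in Ctrl rep2, 21.7 in cKO rep1 and 65.3 (54.1 to 78.2) in cKO rep2. Egr3 (ENSMUSG00000033730.4, chr14:70077203-70082614, plus strand), which acts downstream of synaptic activity, had a promoter peak in Ctrl rep1 alone, at percentile 71.3 and a scaled depth of 30.2 (22.3 to 39.9). That peak was 214 bp wide and rested on 49 fragments, 348 bp upstream of the TSS. In both cKO libraries the nearest listed peak of Egr3 was instead the distal one described below.

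Nr4a1 (ENSMUSG00000023034.7, chr15:101254269-101274795, plus strand) has 2 annotated TSSs, and the printed promoter belongs to the downstream one. The promoter percentile of Nr4a1 was 70.8 in Ctrl rep1, 80.1 in cKO rep1 and 76.6 in cKO rep2, with no promoter peak in Ctrl rep2. Its scaled depth was 30.2 (22.3 to 39.9), 12.5 (8.19 to 18.4) and 30.4 (22.9 to 39.6) in the 3 libraries, all at the downstream TSS. The upstream TSS had a weaker peak of scaled depth 16.0 in Ctrl rep1 and 9.41 in cKO rep2. Npas4 (ENSMUSG00000045903.9, chr19:4984355-4990316, minus strand) had a promoter peak in cKO rep2 alone, at percentile 47.2, on 18 fragments with a local background of 4.54. That Npas4 peak ranked 36680 of 44535 in its list, and its summit lay in the UTR, 218 bp downstream of the GENCODE TSS.

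Arc (ENSMUSG00000022602.14, chr15:74669083-74672570, minus strand) had a promoter percentile of 54.8 in Ctrl rep1 and 50.0 in cKO rep2, with no promoter peak in Ctrl rep2 or cKO rep1. Its scaled depth was 15.4 (9.97 to 22.8) and 9.96 (5.91 to 15.7), and these intervals overlap. Ier2 (ENSMUSG00000053560.4, chr8:84661331-84662852, minus strand) had a percentile of 85.3 in Ctrl rep1, 74.0 in cKO rep1 and 80.2 in cKO rep2, with none in Ctrl rep2. Those values compare different summits. The strongest Ier2 peak lay 1200 and 1238 bp upstream in Ctrl rep1 and cKO rep2, nearer the TSS of the gene Gm26664, but 19 bp upstream in cKO rep1. At the Ier2 TSS itself the scaled depth was 29.6 in Ctrl rep1, 12.5 in cKO rep1 and 34.9 in cKO rep2.

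The study asked whether loss of the CxxC zinc finger changes chromatin accessibility, and these promoters were compared between cKO and Ctrl on that account. Nr4a1 was the 1 gene of the 10 whose promoter percentile was above both Ctrl libraries in both cKO libraries, which also held for 20.5% of the 13196 protein-coding genes that had such a peak in any list. For Nr4a1 the mean was 78.3 ± 2.49 (SD, n = 2) in cKO and 35.4 ± 50.1 (SD, n = 2) in Ctrl (exact permutation test, two-sided, p = 0.333, the smallest this design allows, and 1 after Benjamini-Hochberg adjustment over the 13196 genes). Its difference was 42.9 points with all libraries and 7.51 without Ctrl rep2. The percentile was below both Ctrl libraries in both cKO libraries for 0 of the 10, against 2.8% of genes. Over the 10 genes the median difference (cKO minus Ctrl) was 11.5 points, with a range of -35.7 for Egr3 to 44.6 for Fos, and over the 13196 genes it was 29.5. Without Ctrl rep2 the medians were -1.28 and -1.70. The range over the 10 genes was then -71.3 for Egr3 to 23.6 for Npas4, and Fos was at -1.34. Egr3 and Npas4 each had a promoter peak in 1 list only, and a missing peak counted as 0. The sign of the median thus rests on Ctrl rep2.

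Against Ctrl rep1 alone, Nr4a1 was the 1 gene with a higher promoter percentile in both cKO libraries, where 23.8% of genes were higher. Jun, Egr3, Arc and Ier2 were lower in both, where 36.6% of genes were lower. For Ier2 this rests on the summit near Gm26664, and with promoters of 1 kb its percentile was above both Ctrl libraries in both cKO libraries. On the scaled depth, 0 of the 10 genes lay above both Ctrl libraries in both cKO libraries (0.288% of genes did) and 0 lay below both (0.0227%). Against Ctrl rep1, 0 of the 10 lay above in both cKO libraries (0.319% of genes) and 8 lay below in both, beside 78.4% of genes. The 8 were all but Npas4 and Nr4a1, and they include Ier2, whose depth at its own TSS was higher in cKO rep2 (34.9) than in Ctrl rep1 (29.6). Among genes with a peak in both lists, the median ratio of scaled depth of cKO rep1 to Ctrl rep1 was 0.329 over 7 of the 10 and 0.37 over all 8778 genes. For cKO rep2 to Ctrl rep1 it was 0.745 over 8 of the 10 and 0.842 over 11820 genes. The cKO libraries differed from each other by more than cKO rep2 differed from Ctrl rep1, with a median ratio of cKO rep1 to cKO rep2 of 0.412 over 7 of the 10 genes and 0.442 over 8760.

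Peaks in the gene body and 50 kb either side were then examined, since enhancers of Fos, Npas4 and Arc are known within such distances. The windows of the 10 genes held 75 peaks in Ctrl rep1, 6 in Ctrl rep2, 44 in cKO rep1 and 67 in cKO rep2. Merging peaks that overlapped gave 81 regions, of which 15 were at promoters of the 10 genes, 34 at promoters of other genes and 32 distal, with no annotated TSS within 2 kb of the summit. Of the distal regions, 21 were intergenic, 10 lay in introns and 1 in a coding exon. Of the 81 regions, 0 appeared in the pair of cKO lists without a Ctrl list, against 0.692% of the 58652 regions of the genome, and 0 appeared in the pair of Ctrl lists without a cKO list, against 0.305%. Ctrl rep1 and cKO rep2 alone shared 20 of the 81, against 27.1% of all regions. Distal peaks numbered 29 in Ctrl rep1, 2 in Ctrl rep2, 15 in cKO rep1 and 24 in cKO rep2. The cKO mean exceeded the Ctrl mean by 4 peaks, and without Ctrl rep2 the difference was -9.5. Per gene, the 10 genes had a mean of 2.9 distal peaks in Ctrl rep1 and 1.73 was the mean over all protein-coding genes. The same means were 0.2 and 0.256 in Ctrl rep2, 1.5 and 0.618 in cKO rep1, and 2.4 and 1.64 in cKO rep2.

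**Figure D2:**
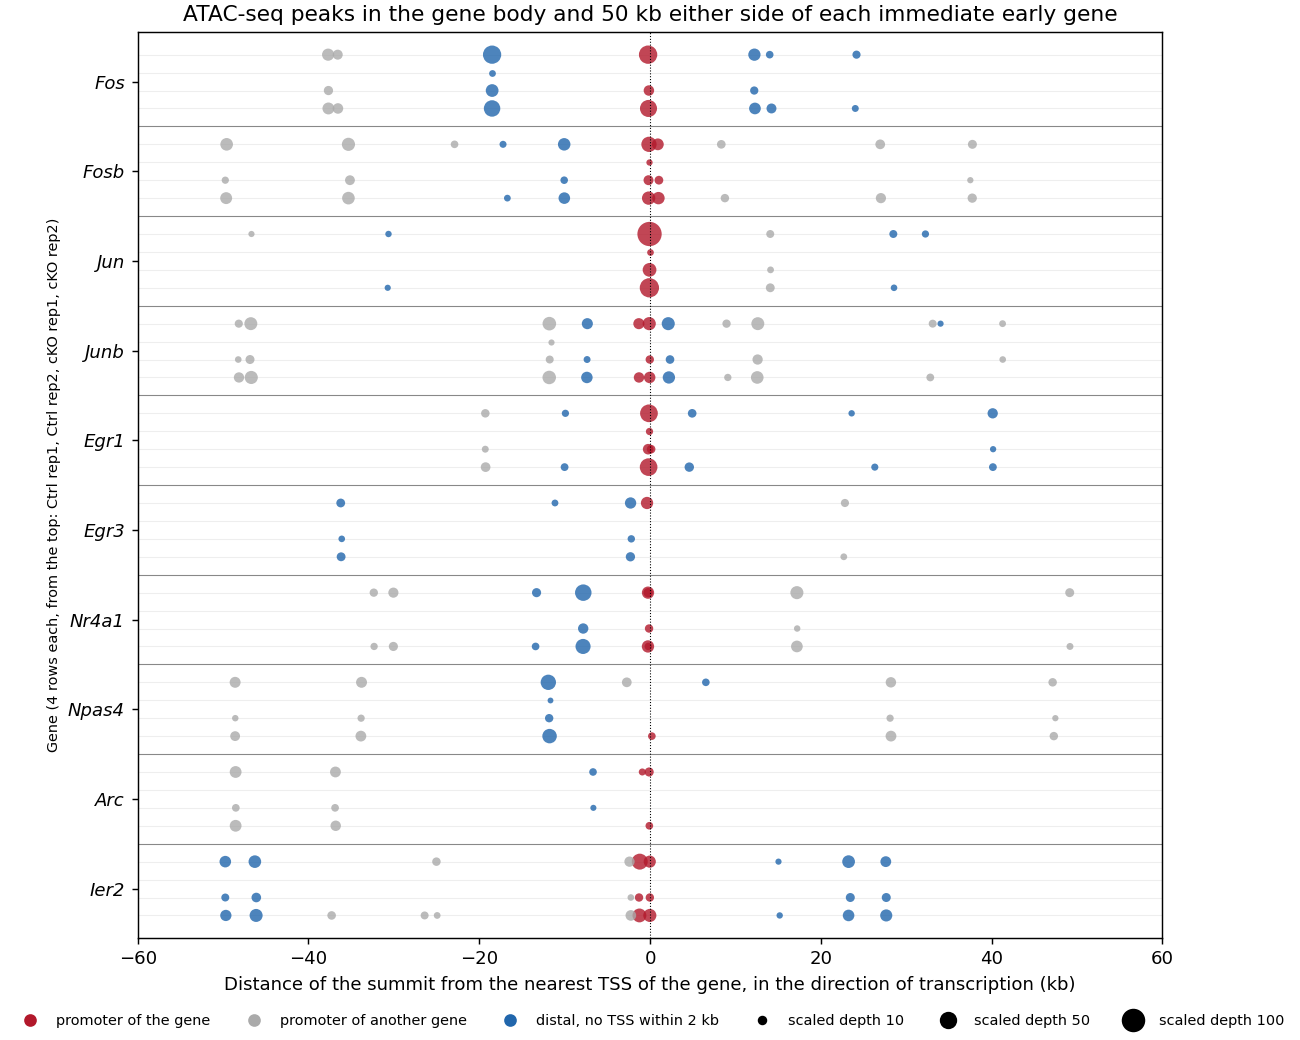
Every listed peak in the windows of the 10 genes, by distance of its summit from the nearest TSS of the gene (kb, positive in the direction of transcription), in 4 rows per gene for the 4 libraries; dot area follows scaled depth and colour the class of the peak. The dots at -18.5 kb of Fos and -11.9 kb of Npas4 are the distal regions present in all 4 rows.

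At least 3 lists held 14 of the 32 distal regions, against 25% of the 41837 distal regions of the genome, and all 4 lists held 2 of them, against 4.12%. The 2 were an intergenic region 18.5 kb upstream of Fos (chr12:85455030-85456025) and an intergenic region 11.9 kb upstream of Npas4 (chr19:5001771-5002401). The latter lay nearer to a TSS of the gene AC124502.2, at 7163 bp. The Fos region had a scaled depth of 70.3 in Ctrl rep1, 7.22 in Ctrl rep2, 32.8 in cKO rep1 and 56.5 in cKO rep2. It was in the top 2.83% of peaks in Ctrl rep1, the top 2.70% in cKO rep1 and the top 3.44% in cKO rep2, so it ranked above the Fos promoter in each of these libraries. In Ctrl rep2 it was the 1 Fos peak listed, on 25 fragments. The Npas4 region had a scaled depth of 48.7, 4.62, 12.5 and 43.2 in the same order of libraries, while the Npas4 promoter was listed at 9.96 in cKO rep2 alone. Both regions were deeper in Ctrl rep1 than in either cKO library, although the Poisson intervals of Ctrl rep1 and cKO rep2 overlapped, and both were shallowest in Ctrl rep2.

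Nr4a1 had an intergenic region 7.81 kb upstream of its upstream TSS (chr15:101246076-101246815), with a scaled depth of 56.7 in Ctrl rep1, 20.7 in cKO rep1 and 47.0 in cKO rep2. This exceeded the Nr4a1 promoter peak in each of the 3 libraries, at 30.2, 12.5 and 30.4, with Poisson intervals that lay apart in Ctrl rep1 and overlapped in both cKO libraries. A second Fos region lay 12.2 kb downstream of the TSS (chr12:85485800-85486511), at 30.2, 12.1 and 27.1. Fosb had a region 10.0 kb upstream (chr7:19319665-19320291), at 31.4, 9.64 and 26.6. Junb had a region 2.21 kb downstream of its TSS, annotated as intron of Junb (chr8:84976263-84976862), at 34.5, 13.5 and 30.4, which was close to its promoter peak at 35.1, 12.5 and 26.0. A region 7.39 kb upstream of Junb, nearer to Hook2, had 24.0, 7.71 and 26.0.

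Egr3 had a region 2.27 kb upstream of its TSS, just outside the promoter limit, at 25.3 in Ctrl rep1, 9.16 in cKO rep1 and 16.1 in cKO rep2. It was thus listed in both cKO libraries that had no Egr3 promoter peak. A region 36.2 kb upstream of Egr3, in an intron of Gm33524 and Pebp4, had 14.2, 6.75 and 14.4. Egr1 had a region 40.1 kb downstream of its TSS and nearer to Etf1 (chr18:34900442-34901666), at 20.3, 5.78 and 10.5. Ier2 had 4 distal regions in at least 3 lists, and all lay in other genes: 27.7 and 23.3 kb downstream in Cacna1a, a calcium channel gene, and 46.1 and 49.7 kb upstream in Nfix, a transcription factor gene. Their scaled depth was 22.8, 32.7, 32.1 and 26.5 in Ctrl rep1, 14.9, 14.9, 17.4 and 11.1 in cKO rep1, and 29.3, 26.6, 34.3 and 24.9 in cKO rep2. Arc had a region 6.67 kb upstream with 9.86 in Ctrl rep1 and 5.30 in cKO rep1, from 16 and 11 fragments. Jun had no distal region in at least 3 lists. Its strongest, 28.5 kb downstream and nearer to Gm12704, had a scaled depth of 11.1 in Ctrl rep1.

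**Figure D3:**
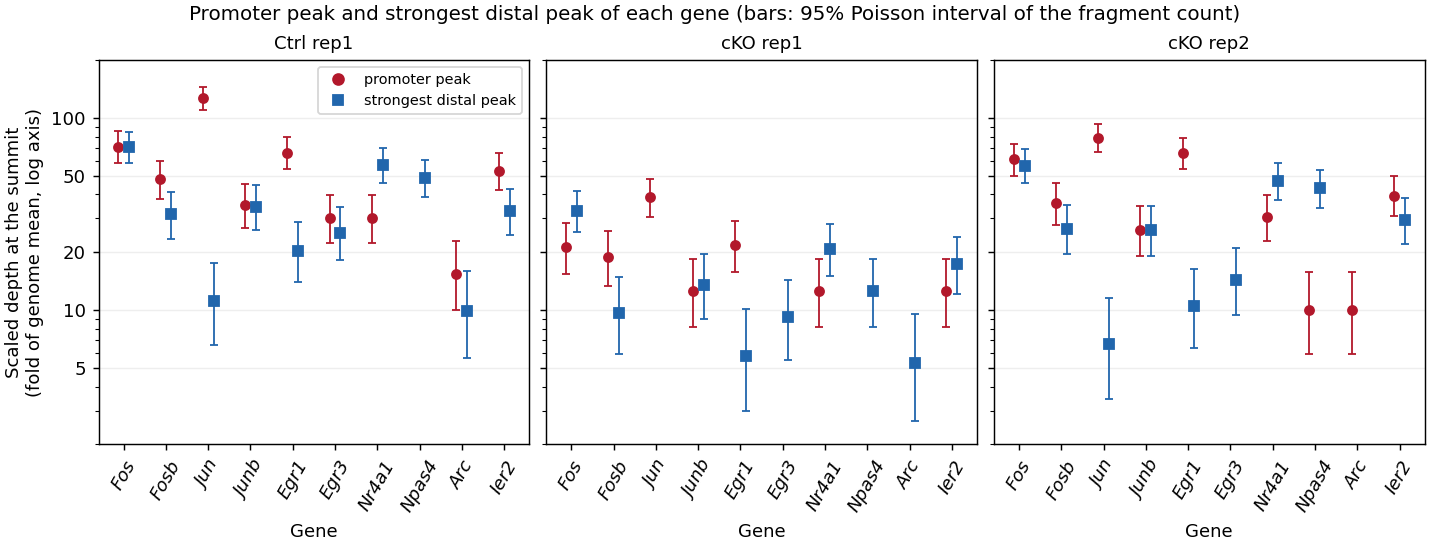
Scaled depth at the summit (fold of the genome mean, log axis) of the promoter peak and of the strongest distal peak by p-value of each gene, in the 3 libraries other than Ctrl rep2; bars are 95% Poisson intervals of the fragment count and cover counting error only. Where both peaks are listed, Jun and Egr1 have the promoter above the distal peak with intervals apart, whereas for Npas4 and Nr4a1 the distal peak is the higher or the one peak listed.

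Measured by p-value within a list, the strongest distal peak was above the promoter peak for 3 of the 10 genes in Ctrl rep1 (Fos, Npas4 and Nr4a1), and for 45.5% of genes with either. It was above for 7 in cKO rep1, against 44.4% of genes, where Junb, Egr3, Arc and Ier2 were added. In cKO rep2 it was above for 5 (Fos, Junb, Egr3, Npas4 and Nr4a1), against 47.8%. Among the 10, a gene with a distal peak and no listed promoter peak counted as above. This applied to Npas4 in Ctrl rep1, to Egr3, Npas4 and Arc in cKO rep1, and to Egr3 in cKO rep2. The Arc distal peak in cKO rep1 rested on 11 fragments. For Fos the intervals of promoter and distal depth overlapped in all 3 libraries, in cKO rep1 at 15.4 to 28.5 and 25.5 to 41.6. By depth the promoter was higher in Ctrl rep1 and cKO rep2, and the distal peak in cKO rep1. Overlap of intervals does not decide their order. For Npas4 in cKO rep2 the distal interval (34.1 to 53.9) lay above that of the promoter (5.91 to 15.7).

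The sequence at the summits of the distal regions was read from GRCm38.p6 in windows of 201 bases around the summit in Ctrl rep1. The 5 shown are the strongest distal regions of Fos, Npas4 and Nr4a1, because these ranked above or without a promoter peak in Ctrl rep1 and both cKO libraries, and the Fos +12.2 kb and Junb windows, because these held a CArG box. Each is on the strand of its gene, and capitals mark CArG boxes, TGACG cores and EGR motifs. The Junb window keeps the label of its region but is centred on the Ctrl rep1 summit, 2.14 kb downstream of the TSS. The Junb summit in cKO rep1 lay outside that window. The Fos -18.5 kb window is chr12:85455298-85455498 and the Fos +12.2 kb window chr12:85486016-85486216, both on the plus strand, the Junb +2.21 kb window is chr8:84976481-84976681 on the minus strand, the Npas4 -11.9 kb window chr19:5002122-5002322 on the minus strand and the Nr4a1 -7.81 kb window chr15:101246355-101246555 on the plus strand.
Fos -18.5 kb: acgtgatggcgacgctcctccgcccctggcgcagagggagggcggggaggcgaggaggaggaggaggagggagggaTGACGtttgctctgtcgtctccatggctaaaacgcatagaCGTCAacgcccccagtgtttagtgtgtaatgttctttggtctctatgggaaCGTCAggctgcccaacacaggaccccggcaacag
Fos +12.2 kb: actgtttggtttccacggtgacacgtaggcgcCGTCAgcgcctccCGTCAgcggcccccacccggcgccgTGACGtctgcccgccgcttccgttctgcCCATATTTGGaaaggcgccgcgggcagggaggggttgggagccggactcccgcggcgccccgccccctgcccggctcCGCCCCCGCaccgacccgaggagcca
Junb +2.21 kb: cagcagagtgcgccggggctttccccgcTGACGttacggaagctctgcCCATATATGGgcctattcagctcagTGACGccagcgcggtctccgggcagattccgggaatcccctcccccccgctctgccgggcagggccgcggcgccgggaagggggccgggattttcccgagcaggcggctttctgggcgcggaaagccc
Npas4 -11.9 kb: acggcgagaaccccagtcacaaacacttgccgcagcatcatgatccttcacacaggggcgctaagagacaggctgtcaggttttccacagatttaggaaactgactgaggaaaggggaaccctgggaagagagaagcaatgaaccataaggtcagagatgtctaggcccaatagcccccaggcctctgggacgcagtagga
Nr4a1 -7.81 kb: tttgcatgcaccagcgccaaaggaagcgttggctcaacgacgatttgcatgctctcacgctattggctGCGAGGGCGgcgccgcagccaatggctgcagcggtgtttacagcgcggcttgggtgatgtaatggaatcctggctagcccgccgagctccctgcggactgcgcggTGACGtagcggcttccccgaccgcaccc

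The windows of 12 of the 14 distal regions held by at least 3 lists are reported. Sequence of chromosome 18, where Egr1 lies, was not used here, in the windows or in the background. The background was the 9661 distal peaks of Ctrl rep1 that overlapped peaks of at least 2 other lists. The TGACG core was found in 6 of the 12 windows, against 8.37% of that background. The 6 included the Ier2 window 23.3 kb downstream, whose summit lies in a coding exon of Cacna1a. A CArG box was found in 2, the Fos +12.2 kb and Junb +2.21 kb windows, against 1.12%. It began 2 bases before the summit in the Fos +12.2 kb window. The EGR motif was found in 3, the Fos +12.2 kb, Fosb -10.0 kb and Nr4a1 -7.81 kb windows, against 0.393%. The AP-1 motif was found in 0 of the 12, against 6.27%, the complete CRE in 0, against 0.362%, the TATA box in 0, against 8.63%, and the NR4A motif in 0, against 0.424%. All 6 windows with the core, both with the CArG box and all 3 with the EGR motif were among the 7 windows with at least 50% GC and a ratio of observed to expected CpG of at least 0.6, as were 603 peaks or 6.24% of the background. The core and the EGR motif contain CpG, so the background differs from these windows in composition. Within those 603 peaks the core was found in 22.2%, the CArG box in 1.66% and the EGR motif in 4.31%, a comparison chosen after the data were seen. The Npas4 -11.9 kb window held none of the 7 motifs. It surrounds the Ctrl rep1 summit, and the summits in Ctrl rep2 and cKO rep2 lay outside it. A match is a description of the letters and does not show binding.

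The 10 genes were set beside fixed lists of related genes. Of 35 other immediate early genes, 25 had a promoter peak in at least 3 lists, compared with 7 of the 10 and 39.9% of all protein-coding genes. Those above the 95th percentile in at least 3 lists were Klf6, Homer1 and Per1, and Egr4 was the 1 of the 35 with no promoter peak in any list. Klf6 encodes a zinc finger factor, Homer1 a scaffold of the postsynaptic density and Per1 a component of the circadian clock. Of 20 upstream factors, including Srf, Creb1 and the MEF2 genes, 16 had a promoter peak in at least 3 lists, beside the same 39.9%. The median promoter percentile in Ctrl rep1 was 78.3 for the 10, 77.1 for the 35 and 79.2 for the 20, in cKO rep1 it was 77.1, 81.1 and 79.6, and in cKO rep2 it was 78.4, 73.0 and 83.5, so the order of the 10 and the 35 was not the same in the 3 libraries. The median difference was 11.5, 32.0 and 36.3 points for the 3 lists with all libraries, beside 29.5 over all genes with a promoter peak. Without Ctrl rep2 it was -1.28, 0.761 and 1.08, beside -1.70. Both cKO libraries lay above both Ctrl libraries in 1 of the 10, 11 of the 35 and 6 of the 20, beside 20.5% of all genes, and above Ctrl rep1 in 1, 13 and 7, beside 23.8%.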

How the data were processed

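ATAC-seq of P0 hippocampi gave 4 libraries, grouped and numbered by their titles. According to the submitters' notes and the study's methods, the authors used cutadapt for trimming and Bowtie2 for alignment to mm10, dropped mitochondrial reads, blacklisted regions and duplicates, and called peaks in each library separately with MACS2 2.2.7.1. Removing duplicates and calling lists separately give each list its own depth limit. The deposited fold is the ratio of fragments at the summit to the local background, with 1 added to both by MACS2. The deposited −log10 p-value and −log10 q-value are from the authors' Poisson test, and the lowest −log10 q-value per list was 1.31 to 1.32. The deposited summit offset was added to the peak start. Whole fragments were recovered from fold and p-value, matching the −log10 p-value within 0.01 for at least 99.986% of the peaks checked in each list.

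TSSs came from GENCODE M21 basic, without the mitochondrial genome. Groups were compared by an exact permutation test over 6 assignments of the libraries, with Benjamini-Hochberg adjustment over 13196 genes. Poisson intervals (95%) and counts cover counting error only. No label says that the libraries came from separate animals, so spread between them may be technical. The 10 genes, the lists and the tests were chosen with earlier results of these data known. All 10 genes are named, as are distal regions in at least 3 lists and other immediate early genes above the 95th percentile in at least 3 lists or with no promoter peak. Alternatives were promoters of 1 kb, any overlap with the promoter, equal-size lists of 7037 peaks, −log10 q of at least 5, scaled depth, other windows, leaving out each library and a replicate block. The sequence of 1 further distal region is not reported here. The code was tested on simulated data. Python 3.11.15, pandas 2.3.3 and scipy 1.17.1 were used.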

Additional observations from a re-analysis of the deposited data

How the results depend on the processing

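The number of the 10 genes whose cKO percentiles both exceeded the Ctrl percentiles was 1 (Nr4a1). It became 2 with promoters of 1 kb (Nr4a1 and Ier2), 2 with any overlap (Junb and Nr4a1), 0 in equal-size lists of 7037 peaks and 0 on the scaled depth, and ranged from 1 to 4 when a library was left out. Leaving out 1 library at a time moved the difference in promoter peaks among the 10 genes from -1 to 5, the median difference in promoter percentile from -1.28 to 26.0 points, and the difference in distal peaks from -9.5 to 17.5. Of these lowest values, each came from leaving out Ctrl rep2. Without cKO rep2 the difference in distal peaks was -0.5. With all libraries the median difference of 11.5 points was 0 in equal-size lists and 16.8 with −log10 q of at least 5, and in units of scaled depth it was 1.08. The difference of 4 distal peaks was 1.5 in equal-size lists and in windows of 20 kb. It was 4.5 with −log10 q of at least 5, 5.5 with no TSS within 1 kb and 6 for peaks shared with another list. The difference of 2 promoter peaks was 1 in equal-size lists and 2.5 with any overlap with the promoter.

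With all libraries kept, the sign of the percentile difference changed in 5 of 50 cases outside the replicate block and the difference fell to 0 in 5 more, which were Arc, Egr3, Junb and Npas4 in equal-size lists and Npas4 with −log10 q of at least 5. Egr1 became 6.19 on the scaled depth. Fosb became 0.461 on the scaled depth and 41.6 with −log10 q of at least 5. Ier2 became -2.55 in equal-size lists and -0.591 on the scaled depth. Without 1 library the difference ranged from -29.8 to 25.0 for Arc, -7.46 to 1.42 for Egr1, -1.34 to 90.5 for Fos, -8.19 to 77.1 for Ier2, -1.99 to 0.791 for Jun and -0.232 to 67.4 for Junb. For Egr3 the difference ranged from -71.3 to 0, and with all libraries it was -6.27 with any overlap with the promoter. The range was -9.38 to -1.21 for Fosb, 0 to 47.2 for Npas4 and 7.51 to 78.3 for Nr4a1. The cause was not tested.

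The correlation of deviations between libraries of the same replicate number was 0.053. With 2 libraries per group this cannot decide whether the numbers pair the libraries. With a replicate block, 2 genes (Junb and Nr4a1) were higher in cKO in both pairs, against 32.2% of 13196 genes, and 2 (Jun and Egr1) were lower in both, against 4.30%. The block leaves mean differences the same by construction, and the smallest p was 0.5. The 2 libraries per group and the limit of 7 to 12 fragments bound what a missing peak can show.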

Other observations

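Most of the distal windows were rich in CpG. Of the 12 windows of 201 bases, 7 had at least 50% GC and a ratio of observed to expected CpG of at least 0.6, as had 6.24% of the 9661 distal peaks held by at least 3 lists. The ratio was 0.777 at Fos -18.5 kb, 0.994 at Fos +12.2 kb, 1.08 at Fosb -10.0 kb, 0.861 at Junb +2.21 kb, 0.856 at Junb -7.39 kb and 1.03 at Nr4a1 -7.81 kb. It was 0.346 at Npas4 -11.9 kb, the region of Npas4 present in all 4 lists, 0.131 at Egr3 -36.2 kb, and 0.256, 0.132 and 0.181 at 3 of the 4 Ier2 windows. The other Ier2 window, with its summit in a coding exon of Cacna1a, had 1.32. This comparison was chosen after the data were seen.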
